A study of Homo sapiens with 4 samples.

Results

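The lipid-sensing nuclear receptors of the PPAR, LXR, RXR and RAR families were examined through their noncoding transcripts in HepG2 cells, an established human liver cancer line. The members were the genes *PPARG*, *PPARA*, *PPARD*, *RXRA*, *RXRB*, *NR1H2*, *NR1H3* and *RARA*, taken as every transcript of these 8 genes that the deposited table lists and GENCODE release 29 names. *PPARG* was chosen by the measured counts of its transcript PPARG-214, which lay among the lowest p-values of the contrast between the groups, and the others because their proteins pair with PPARG or share its partner. The differences of the members between groups are therefore descriptions, and no p-value of a member is printed. Counts of members past a threshold stand beside the share of all features past it. Of 106179 transcripts in the table, 34 belonged to 7 of the 8 genes. *PPARD* had none, since its 5 transcripts in that annotation are all protein coding.

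Each group held 2 libraries, labelled wild type and oxaliplatin resistant, all of the HepG2 line grown in DMEM with serum and listed with no treatment. Oxaliplatin is a platinum drug that crosslinks DNA. How the resistant cells were selected, whether they are 1 clone, and whether drug was present at harvest were not given in the sources used here. Nor do the labels say that libraries came from separate cultures, so the spread between them may be technical. Library totals ran from 34898860 to 44063444 estimated counts.

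The proteins made by these genes are ligand-activated transcription factors. PPARs bind fatty acids and their derivatives, LXRs (encoded by *NR1H2* and *NR1H3*) bind oxysterols, and RARs bind retinoic acid; each sits on DNA as a heterodimer with an RXR. PPARα drives fatty acid oxidation in hepatocytes, while PPARγ is best known for fat storage in adipocytes and is normally low in liver. *PPARG* has several promoters, and the PPARγ2 form starts from a promoter and first exon of its own that adipocytes use. The table holds only noncoding transcripts, such as retained-intron forms, so no value below is a level of a receptor protein or its messenger RNA.

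Most *PPARG* counts came from a different transcript in each group. *PPARG* (ENSG00000132170) lies on the forward strand of chromosome 3 at 12287368-12434356 (GRCh38), and 2 of its 17 annotated transcripts were in the table, both of the retained-intron class. PPARG-214 (ENST00000497594) spans 12289111-12406846 in 6 exons and 1600 bases. PPARG-213 (ENST00000477039) spans 12351472-12406846 in 5 exons and 1705 bases, and begins at the same base as the coding transcript PPARG-201. Their starts are 62361 bases apart. They share 1502 bases, which are 93.9% of PPARG-214 and 88.1% of PPARG-213. All shared exons come after the first exons, and 765 of the shared bases are intron kept at the 3′ end.

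The stretches that separate the transcripts are short, and the joins into the first shared exon are shown because the pair diverge there. Capitals mark the last 15 bases before the join, and lower case the first 15 bases of the shared exon at chr3:12379704-12379718, read 5′ to 3′ on the forward strand of GRCh38. The capitals come from chr3:12312439-12312453 in PPARG-214 and chr3:12351660-12351674 in PPARG-213.
PPARG-214: AGTCAGCCTTTAACGaaatgaccatggttg
PPARG-213: CAAACATATCACAAGaaatgaccatggttg

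PPARG-214 has 98 bases of its own, in 2 exons, and all are untranslated sequence in coding *PPARG* transcripts. PPARG-213 has 203 bases of its own in 1 exon, of which 82 are coding and 121 untranslated in coding transcripts. The coding stretch, at chr3:12351593-12351674 on the forward strand, opens the PPARγ2 reading frame and is shown with its start codon in capitals.
PPARG-213 first exon, coding part: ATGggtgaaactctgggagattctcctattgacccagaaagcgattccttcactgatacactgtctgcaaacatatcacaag
The bases outside any coding exon are the 765 intron bases that both transcripts hold. Their first 90 bases, at chr3:12406082-12406171, are shown because they mark the molecules as unspliced there, with the first 2 bases of the intron in capitals.
Retained intron of both transcripts: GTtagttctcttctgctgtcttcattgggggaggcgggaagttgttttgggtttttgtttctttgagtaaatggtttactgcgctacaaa
Neither transcript therefore has a base that is both its own and outside coding exons. Reads in a first exon could also come from coding messenger RNA, whose part in the counts was not tested.

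**Figure D1:**
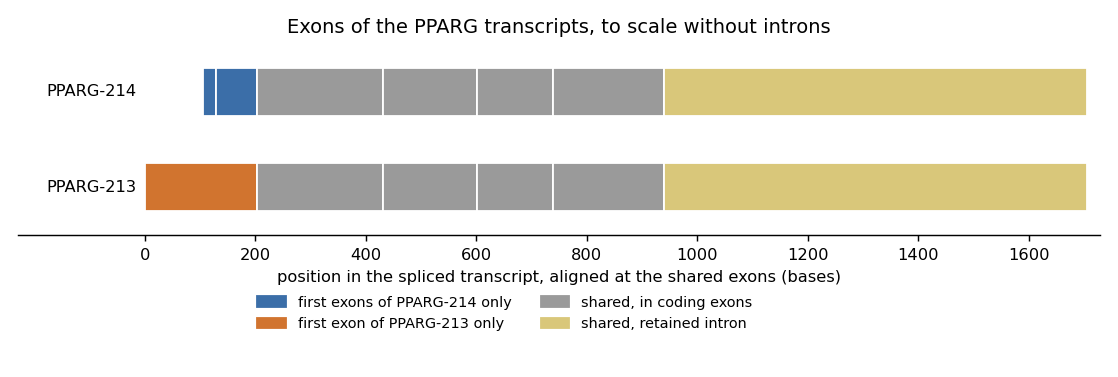
Exons of PPARG-214 and PPARG-213 drawn end to end without introns, with position in the spliced transcript in bases on the x axis. The pair differ in the first exons (98 bases in blue, 203 bases in orange) and share the coding-exon stretch (grey) and the 765 retained-intron bases (yellow).

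PPARG-214 held 3899 and 3073 estimated counts in the wild-type libraries and 134 and 154 in the resistant libraries. Both wild-type libraries stood far above both resistant ones, with no overlap. Scaled to CPM (counts relative to library size, with edgeR's TMM factors over the tested transcripts), the levels were 101 ± 10.8 in the wild-type pair and 3.23 ± 0.398 in the resistant pair (mean ± SD, n = 2 each). That is a 31.2-fold lower level, or a log2 fold change of -4.96 ± 0.39 (standard error). PPARG-213 showed the opposite arrangement.

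PPARG-213 held 0 counts in both wild-type libraries and 5172 and 11750 in the resistant libraries. Counts stood in both resistant libraries, more in the second than in the first. The resistant mean was 191 ± 109 CPM (SD, n = 2). By counting error alone, a count of 0 allows 3 counts per library, and the mean was at least 2191.5-fold higher than that. As a share of *PPARG* counts, PPARG-213 made up 97.5% (95% Wilson interval 97.0 to 97.9) and 98.7% (98.5 to 98.9) in the resistant libraries. In the wild-type libraries a count of 0 allows shares of up to 0.0769% and 0.0976%. These intervals and limits cover counting error only. They leave out how reads in the 1502 bases shared with PPARG-214 were assigned, which was not tested. A count of 0 may therefore not bound the level.

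**Figure D2:**
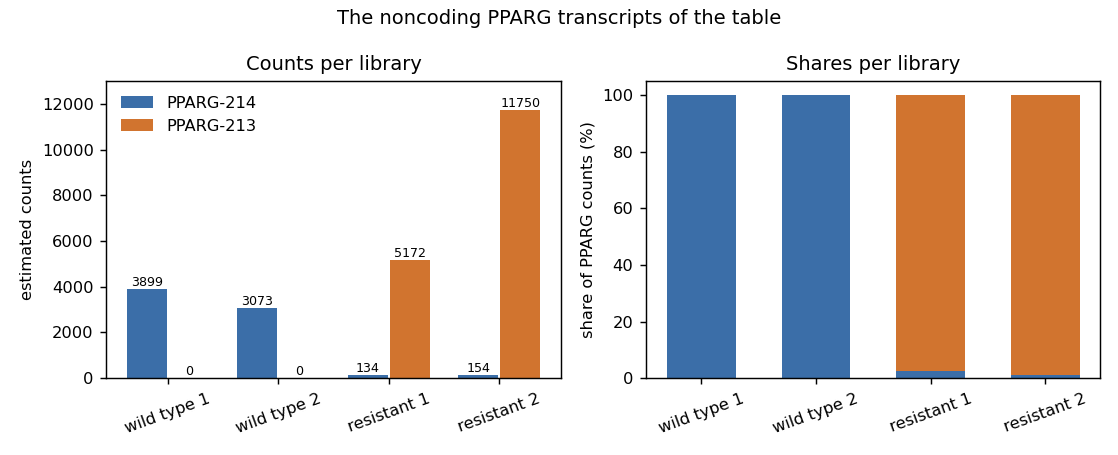
Estimated counts of PPARG-214 (blue) and PPARG-213 (orange) in each of the 4 libraries (left, y axis in counts), and their shares of the *PPARG* counts in percent (right). PPARG-214 makes up all counts in the wild-type pair, and PPARG-213 makes up 97.5% and 98.7% in the resistant libraries.

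The sum of both transcripts differed far less than either alone. It was 3899 and 3073 counts in the wild-type pair and 5306 and 11904 in the resistant pair, or 122 ± 13.4 and 233 ± 130 CPM over gene sums (SD, n = 2 each). The groups did not overlap, but the second resistant library carried most of the difference. The log2 fold change of 0.93 ± 0.50 (standard error) was 0.21 without that library and 1.41 without the first resistant library.

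Changes of the leading transcript were common in these data, also within groups. Among 7310 genes with at least 2 counted transcripts and a mean sum of 100 counts or more, the leading transcript differed between the 2 wild-type libraries in 29.2% and between the 2 resistant libraries in 27.2%. It was alike within both groups and different between them in 291 genes, or 3.98%. *PPARG* was 1 of 14 genes (0.192%) in which 1 transcript went from at least 90% of counts to at most 10% and another did the reverse. Those limits were set after *PPARG*'s values were seen. Since the contrast that chose *PPARG* holds this switch, nothing is read from the share.

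One other of the 14 genes was *NRIP1*, which encodes the corepressor RIP140 that binds liganded nuclear receptors. NRIP1-206 held 2096 and 3653 counts in the wild-type pair and 0 in both resistant libraries. NRIP1-205 held 0 in both wild-type libraries and 1624 and 607 in the resistant ones. Each *NRIP1* transcript had counts in 1 group alone, whereas PPARG-214 kept low counts in the resistant pair. The summed *NRIP1* counts gave a log2 fold change of -1.78 ± 0.67 (standard error).

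The sequence before the annotated start of PPARG-213 is shown because nearly all *PPARG* counts of the resistant pair were assigned to that transcript. Which start the cells used was not tested. The nearest start in RefSeq (GRCh38.p14) lies 55 bases upstream of PPARG-213's first base, and the 250 bases before it, at chr3:12351167-12351416 on the forward strand, are from RefSeq.
Upstream of PPARG-213: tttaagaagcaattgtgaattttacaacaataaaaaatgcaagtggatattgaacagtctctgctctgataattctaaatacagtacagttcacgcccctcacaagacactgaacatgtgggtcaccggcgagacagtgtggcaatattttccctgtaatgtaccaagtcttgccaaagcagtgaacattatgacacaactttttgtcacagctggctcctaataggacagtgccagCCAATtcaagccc
Capitals mark the 1 match found, a CCAAT box at chr3:12351404-12351408. Both strands were searched for this box, for the TATA box TATAAA, and for the receptor half-site, the letters AGGTCA. In the RefSeq promoter windows of the 8 genes, which run from 250 bases before to 50 after a start, the CCAAT box stood in 7 of 21, the half-site in 5 and the TATA box in 2. Among all 35116 such windows the shares were 34.6%, 13.8% and 11.5%. Both TATA box windows, chr3:12288810-12289109 and chr3:12288820-12289119, lie near the start of PPARG-214 and also hold the half-site. They overlap, so the same match may be counted in both. A match is a string of letters, not a shown binding site.

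*PPARA*, which encodes the fatty acid sensor of hepatocytes, had 6 noncoding transcripts in the table on chromosome 22 (ENSG00000186951, 46150521-46243756, forward strand). PPARA-210 (ENST00000493286), a retained-intron form of 1564 bases, led in all 4 libraries. It held 1756 and 571 counts in the wild-type pair and 725 and 659 in the resistant pair, or 96.9% and 92.2% against 89.4% and 88.0% of the gene's counts. The first wild-type library stood above the other 3, which lay close together. The gene sum was 42.0 ± 27.3 CPM in the wild-type pair and 21.0 ± 0.787 CPM in the resistant pair (SD, n = 2 each), with a log2 fold change of -0.998 ± 0.59 (standard error). Without the first wild-type library the log2 fold change was -0.11, and without the second it was -1.54. The other 5 transcripts held at most 57 counts in any library.

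*RXRA* encodes the main liver RXR, the shared partner of PPARs, LXRs and RARs. It lies on chromosome 9 (ENSG00000186350, 134317098-134440585, forward strand) and had 2 transcripts in the table that overlap in only 251 bases. RXRA-201 (ENST00000356384) is a processed transcript of 12 exons and 5770 bases, of which 30.6% lie in coding exons. RXRA-203 (ENST00000484822) is a retained-intron transcript of 5215 bases starting upstream. The opening bases of RXRA-201, at chr9:134371971-134372060, and of the intron kept in RXRA-203, at chr9:134401883-134401972 with its first 2 bases in capitals, are shown as sequence that each holds alone and outside coding exons.
RXRA-201 first exon: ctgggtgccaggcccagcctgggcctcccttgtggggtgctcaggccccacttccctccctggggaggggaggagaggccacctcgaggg
RXRA-203 retained intron: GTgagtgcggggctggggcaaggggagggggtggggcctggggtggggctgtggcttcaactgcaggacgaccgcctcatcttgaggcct

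RXRA-201 held 0 and 3035 counts in the wild-type libraries and 9048 and 10082 in the resistant ones. RXRA-203 held 758 and 0 in the wild-type pair and 902 and 1210 in the resistant pair. The 2 wild-type libraries thus disagreed completely on which transcript was present, while both resistant libraries gave RXRA-201 about the same share, 90.9% and 89.3%. The mean share of RXRA-201 was 40.1 percentage points higher in the resistant pair, 9.89 points lower without the first wild-type library, and 90.1 points higher without the second. The *RXRA* sum was 25.6 and 112 CPM in the wild-type pair and 265 and 309 CPM in the resistant pair, with no overlap. Its log2 fold change was 2.06 ± 0.81 (standard error), 1.36 without the first wild-type library and 3.48 without the second.

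*RXRB*, a second RXR gene (ENSG00000204231, chromosome 6 at 33193588-33200688, reverse strand), had sums of 177 and 200 counts in the wild-type pair and 247 and 154 in the resistant pair. The groups overlapped on the CPM scale, with 6.67 ± 0.963 CPM in the wild-type pair and 5.39 ± 1.67 CPM in the resistant pair (SD, n = 2 each). RXRB-203 held 90.4% and 88.5% of the counts in the wild-type pair and 79.4% and 73.4% in the resistant pair. The rest was RXRB-205, with 17 and 23 counts against 51 and 41. Its share was higher in both resistant libraries, at these low counts.

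The LXR genes showed small differences. *NR1H2*, encoding the widely expressed LXRβ (ENSG00000131408, chromosome 19 at 50329653-50382982, forward strand), had sums of 196 and 150 counts in the wild-type pair and 302 and 239 in the resistant pair. In CPM the groups overlapped, at 6.07 ± 0.790 and 7.28 ± 1.06 (SD, n = 2 each). NR1H2-206 led in every library with 132, 128, 272 and 207 counts in the order wild type 1, wild type 2, resistant 1, resistant 2. NR1H2-205 held 64, 22, 30 and 32 counts in the same order.

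*NR1H3*, encoding the LXRα of liver and macrophages (ENSG00000025434, chromosome 11 at 47248300-47269032, forward strand), had the most transcripts of the set, 16 in the table, of which 12 had counts. Its sums were 887 and 1049 counts in the wild-type pair and 801 and 837 in the resistant pair, or 34.3 ± 6.04 and 22.1 ± 1.10 CPM (SD, n = 2 each). The groups did not overlap, and the log2 fold change was -0.63 ± 0.31 (standard error). No transcript dominated it, and a different one led in each library. NR1H3-220 held 253 and 305 counts in the wild-type pair against 154 and 192 in the resistant pair. NR1H3-222 held 258 and 178 against 134 and 141. Both were lower in both resistant libraries. NR1H3-224 held 226 and 211 against 196 and 258. In CPM it was at 6.27 and 6.39 against 4.31 and 5.88, so lower in both resistant libraries once scaled. NR1H3-219 held 76 and 148 against 209 and 164. In CPM it was at 2.11 and 4.48 against 4.60 and 3.74, so the groups overlapped. NR1H3-228 held 0 and 150 against 63 and 31, so the wild-type libraries enclosed both resistant ones. NR1H3-218, a minor form, held 11 and 19 against 0 and 0. Against 3 counts per library, a limit for counting error alone, it was at least 6.55-fold lower in the resistant pair. NR1H3-220 and NR1H3-228 lie wholly within coding exons of the gene. NR1H3-219 does so for 99.5% of its bases, NR1H3-224 for 88.5% and NR1H3-222 for 64.3%. Reads there, as in the coding-exon parts of other members' transcripts, could also come from coding messenger RNA.

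*RARA*, encoding the retinoic acid receptor RARα (ENSG00000131759, chromosome 17 at 40309192-40357643, forward strand), was close to the limit of detection. Its sums were 0 and 28 counts in the wild-type pair and 158 and 10 in the resistant pair. RARA-209 had counts in a single library, 107 in resistant 1. RARA-210 held 0 and 23 counts in the wild-type pair and 47 and 0 in the resistant pair. RARA-205 held 0 and 5 against 4 and 10. RARA-209 lies wholly within coding exons of the gene and overlaps *RARA-AS1* and *AC080112.3* on the opposite strand. Whether the counting used strand was not given in the sources used here, so the reads of these genes may not be separable. The log2 fold change of 2.12 ± 2.40 (standard error) ranged from -0.90 without resistant 1 to 9.28 without wild type 2. That last fitted value depends on the count of 0 in wild type 1 and is not a measured fold.

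**Figure D3:**
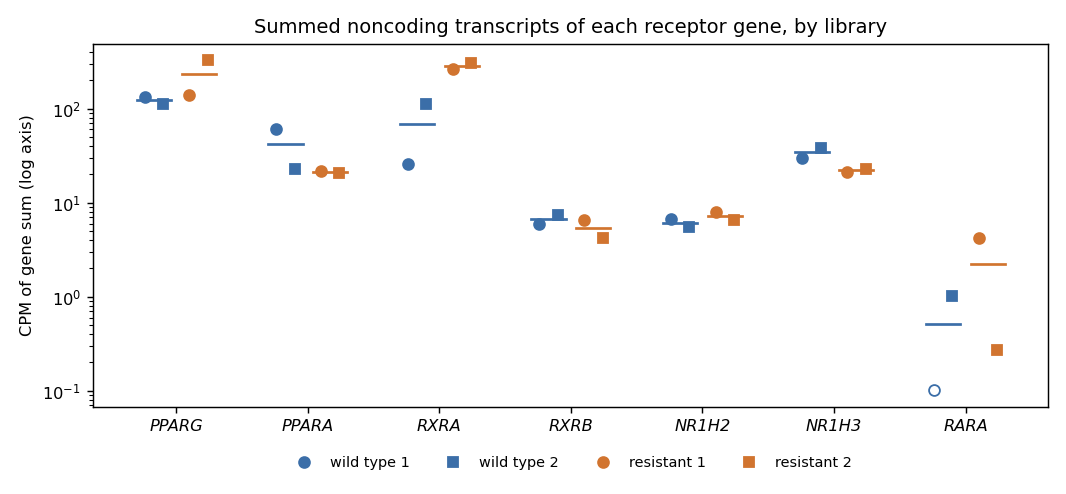
Summed noncoding transcripts of each receptor gene in CPM on a log axis, with 1 point per library and lines at the group means. The open point is a count of 0 drawn at the 3-count limit. On this TMM scale *PPARG* and *RXRA* are higher and *PPARA* and *NR1H3* lower in both resistant libraries. *PPARG* is so only by a narrow margin in resistant 1 against wild type 1 (141 against 132 CPM). *PPARA* is so only by a narrow margin against wild type 2. *RARA* varies most within groups.

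**Figure D4:**
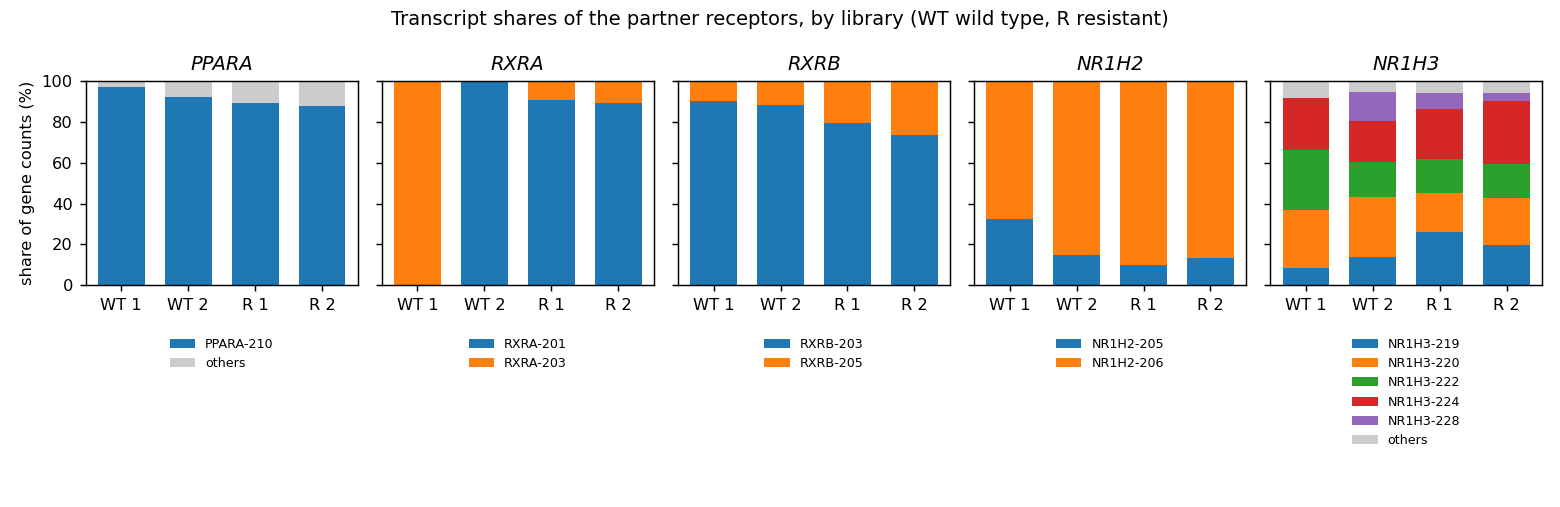
Share of each gene's counts, in percent, held by its named transcripts in each library. PPARA-210 leads in all 4 libraries, while the wild-type libraries hold opposite *RXRA* transcripts.

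Per kilobase of transcript, which allows genes to be compared, *PPARG* had the highest summed level in both groups. These levels were scaled to all deposited counts without TMM factors, so their unit differs from the CPM above. In wild type the order was *PPARG* at 59.5 CPM per kilobase, *NR1H3* at 33.8, *PPARA* at 21.5, *RXRA* at 9.44, *NR1H2* at 5.70, *RXRB* at 4.43 and *RARA* at 0.635. Neighbours overlapped between *NR1H3* and *PPARA*, *PPARA* and *RXRA*, and *RXRA* and *NR1H2*. In resistant cells it was *PPARG* at 115, *RXRA* at 42.5, *NR1H3* at 24.7, *PPARA* at 12.7, *NR1H2* at 7.26, *RXRB* at 4.47 and *RARA* at 3.26. There only *RXRB* and *RARA* overlapped. By group means, *RXRA* stood below *PPARA* and *NR1H3* in the wild-type pair and above both in the resistant pair, but in wild type 2 it stood above *PPARA*.

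Across the set, 20 of the 34 transcripts passed the filter on low counts, 8 had counts below it, and 6 had none. Tested over all 42393 transcripts with edgeR's quasi-likelihood test, 0 transcripts (0%) had an adjusted p under 0.05, members included. At an unadjusted p under 0.05 the share was 7.74% of all transcripts (3283; 4.56% higher and 3.18% lower in the resistant pair), and 3 of the 20 member transcripts passed, PPARG-213 higher and PPARG-214 and NR1H3-218 lower. The groups did not overlap in 11 of the 20 (4 higher, 7 lower), against 40.3% of all transcripts (21.4% higher, 18.9% lower). For gene sums, 0 of 13745 (0%) passed at an adjusted p under 0.05 and 8.67% (1192) at an unadjusted p under 0.05, with 0 of the 7 members among them. With TMM scaling the groups did not overlap in 4 of the 7 (2 higher, 2 lower, *PPARA* narrowly), against 43.0% of all gene sums (22.5% higher, 20.5% lower). The median log2 fold change was -0.44 over the 20 transcripts and 0.02 over all, and 0.26 over the 7 sums and 0.01 over all. With sums scaled to all deposited counts in place of TMM, the median over all was 0.14, and 777 sums were higher and 422 lower at the unadjusted threshold in place of 652 and 540. As the rule used this contrast, nothing is read from these counts. DESeq2's Wald test made 2261 transcript calls and 632 gene-sum calls at an adjusted p under 0.05, and limma-voom made 0 of each.

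The wider pathway was described with gene lists, again as sums of noncoding transcripts. Among 20 coactivators and corepressors, 18 were tested. At an unadjusted p under 0.05, which 4.74% of all sums passed as higher and 3.93% as lower, 2 were higher and 2 lower, and none passed after adjustment. *NCOR1*, a corepressor gene, held 3153 and 6412 counts in the wild-type pair against 6630 and 3959 in the resistant pair, so the groups overlapped. *TBL1XR1*, a subunit of corepressor complexes, was nearly level at 819 ± 33.8 and 798 ± 12.5 CPM (SD, n = 2 each). Those at that unadjusted threshold, named after their values were seen, included the acetyltransferase gene *CREBBP* and *NCOA7*, both higher, and *NCOA6*, lower.

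Of 30 PPAR target genes of fatty acid use and storage, 21 were tested, and 0 were higher and 1 lower at the unadjusted threshold. That gene was *HSD17B4*, encoding the bifunctional enzyme of peroxisomal β-oxidation. It held 27780 and 23519 counts in the wild-type pair and 7951 and 6604 in the resistant pair, a log2 fold change of -2.20 ± 0.24 (standard error, edgeR adjusted p = 0.323). *HADHB*, of mitochondrial β-oxidation, was at 2190 ± 110.3 CPM in the wild-type pair and 1667 ± 170 CPM in the resistant pair (SD, n = 2 each). *ACADVL*, a very long chain acyl-CoA dehydrogenase gene, was at 232 ± 113 and 272 ± 60.1 CPM. The list's median log2 fold change was 0.15, against 0.01 for all gene sums. Noncoding transcripts of *FABP1*, *FABP4*, *LPL*, *CYP4A11* and *CIDEC* were at 0 in all 4 libraries.

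Of 16 LXR target genes, 6 were tested and 0 passed the unadjusted threshold in either direction, with a median of -0.07. *ACACA*, encoding the acetyl-CoA carboxylase of fatty acid synthesis, held 17403 and 33359 counts in the wild-type pair and 10772 and 21707 in the resistant pair, so the groups overlapped. *SREBF1*, which encodes the lipogenic factor SREBP-1, was at 40.6 ± 14.2 and 34.4 ± 8.68 CPM, and fatty acid synthase gene *FASN* at 9.78 ± 1.34 and 10.5 ± 0.426 CPM (SD, n = 2 each).

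Of 21 RAR target and retinoid genes, 9 were tested, and 1 was higher and 2 lower at the unadjusted threshold, with a median of 0.18. *RDH11*, a retinol dehydrogenase gene, was lower at 68.3 ± 17.4 CPM in the resistant pair against 141 ± 19.1 CPM in the wild-type pair (SD, n = 2 each; edgeR adjusted p = 0.518). The other 2, named after their values were seen, were *RARRES1*, higher, and *ALDH1A3*, a retinoic acid synthesis gene, lower. *ALDH1A3* held 670 and 706 counts in the wild-type pair and 69 and 77 in the resistant pair. *TGM2*, a transglutaminase gene induced by retinoic acid, was at 56.3 ± 0.393 and 63.8 ± 7.17 CPM, and *DHRS3*, a retinal reductase gene, at 64.6 ± 3.76 and 55.3 ± 2.24 CPM.

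Of 40 other nuclear receptor genes, 12 were tested, and 2 were higher and 0 lower at the unadjusted threshold, with a median of 0.08. *NR3C1*, the glucocorticoid receptor gene, held 1882 and 1722 counts in the wild-type pair and 3717 and 5402 in the resistant pair (edgeR adjusted p = 0.548). The other, named after its values were seen, was *THRB*, a thyroid hormone receptor gene, with 0 counts in both wild-type libraries and 128 and 805 in the resistant ones. *NR2C1*, an orphan receptor gene, held 1944 and 1774 against 9419 and 2236 counts, and *NR2C2*, its paralogue, 1952 and 3180 against 3210 and 2546. In CPM *NR2C1* was at 65.5 ± 0.403 and 156 ± 134 (SD, n = 2 each). The groups overlapped, and the higher mean rested on resistant 1.

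**Figure D5:**
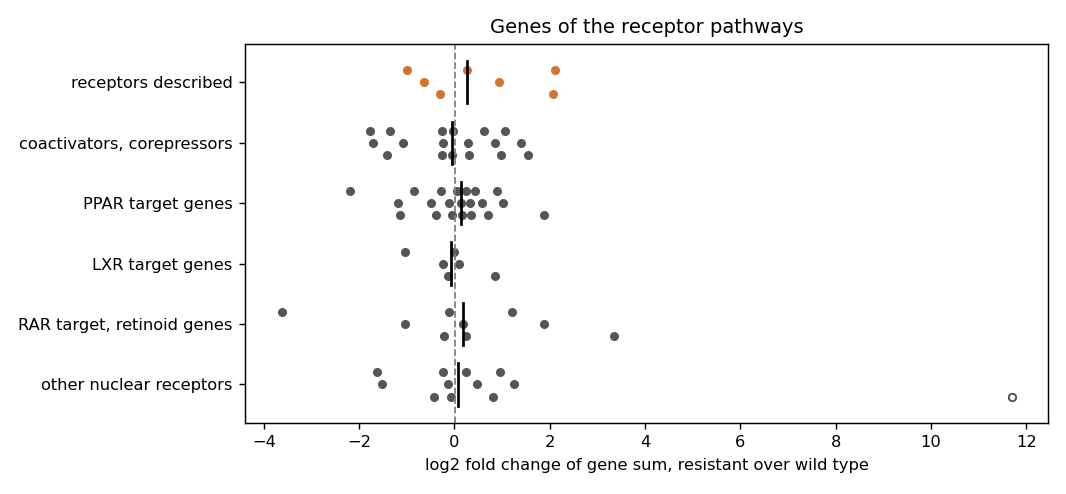
Log2 fold change of each tested gene sum (resistant over wild type) for the 7 receptor genes and the 5 pathway lists, with black bars at the medians and a dashed line at the median of all gene sums. List medians lie between -0.07 and 0.18, and the open point is *THRB*, whose fitted value depends on a wild-type count of 0.

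The gene sums whose pattern over the 4 libraries was most like that of *PPARG*, by root mean square difference of centred log2(CPM + 0.1), were *POFUT2* (0.041), *ATE1-AS1* (0.076) and *FAM13A* (0.086), among 6872 candidates. *POFUT2* held 414, 343, 561 and 1346 counts in the order wild type 1, wild type 2, resistant 1, resistant 2. In all 3, as in *PPARG*, the second resistant library was the highest of the 4, which follows from choosing them by this likeness.

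Cell type markers could be read only through noncoding transcripts. Of 20 hepatocyte markers, 14 were in the table and 10 of these were at 0 in every library, among them *AFP*, *TTR* and *SERPINA1*. Their summed level was 0.404 to 0.575 CPM in the wild-type pair and 0.373 to 2.13 CPM in the resistant pair, so the liver label could not be checked here. Of 6 adipocyte markers 4 were in the table, with *FABP4*, *CIDEC* and *LIPE* at 0 throughout and a sum of 0 in the wild-type pair and 0 to 0.164 CPM in the resistant pair. Fibroblast and endothelial markers (9 of 10 in the table, with *COL1A2*, *LUM* and *KDR* at 0) summed to 6.12 to 9.15 CPM in the wild-type pair and 1.72 to 3.62 CPM in the resistant pair. Leukocyte markers (3 of 5 in the table, *CD3E* among those at 0) summed to 0 and to 0 to 0.719 CPM. The part of other cell types in the receptor results was not tested, and fewer cells of a type cannot be told apart from less RNA per cell.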

How the data were processed

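RNA from 2 wild-type and 2 oxaliplatin-resistant HepG2 libraries was sequenced as 150-base paired reads from 2 µg total RNA, per the labels' protocols. The authors deposited estimated counts per noncoding transcript. As to the counting tool, it was not given in the sources used here. A mouse build, mm9, is the one named in the submitters' processing notes, whereas the identifiers are human, so names and coordinates were taken from GENCODE release 29 (GRCh38).

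Counts were summed per gene, filtered (filterByExpr, minimum count 10), scaled by TMM and tested with edgeR 4.0.16 (quasi-likelihood, Benjamini-Hochberg) in R 4.3.3 over the whole table. Alternatives used DESeq2 1.42.0, limma 3.58.1, other scalings, no filter, a replicate block and leaving out each library. The method was tested on simulated data: at the spread estimated here, 0 of 98 transcripts and 0 of 95 gene sums changed 16-fold were called. With 2 against 2 an exact permutation test cannot go below p = 0.333.

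Members and lists were chosen with earlier results of these data known. Named were all members, every transcript with at least 10% of its gene's counts in any library, from each list the genes passing the adjusted threshold or else the 3 tested genes of highest mean CPM, and the 3 gene sums most like *PPARG*. Some genes that the rule or a list would name are not reported here. By that rule the marker lists give *FGG* (3, 9, 8 and 74 counts in the order wild type 1, wild type 2, resistant 1, resistant 2), *PDGFRB* (106, 160, 44 and 11), *COL1A1* (62, 78, 87 and 34) and *COL3A1* (10, 11, 2 and 16). No 2 libraries were alike within sampling noise, with a chi-square per transcript of 216 to 271.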

Additional observations from a re-analysis of the deposited data

How the results depend on the processing

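Calls at an adjusted p under 0.05 numbered 0 for transcripts and gene sums with edgeR under every scaling and filter tried, and with limma-voom. They numbered 0 without any 1 library (range 0 to 0), and 2261 transcripts and 632 gene sums with DESeq2's Wald test. The cause was not tested. Taking the transcript of highest mean count out of each sum reversed the log2 fold change for *PPARG* (-4.98), *PPARA* (0.38), *RXRB* (0.80) and *NR1H2* (-0.83), but not for *RXRA* (1.15). *PPARG*, *RXRA*, *RXRB* and *NR1H2* had 2 counted transcripts each, so the value there is that of the lesser transcript alone. In *PPARA* the value is that of its minor transcripts. Leaving out 1 library gave ranges of 0.21 to 1.41 for the *PPARG* sum, 1.36 to 3.48 for *RXRA* and -0.90 to 9.28 for *RARA*, which reversed without resistant 1. The 9.28 is a fitted value that depends on a wild-type count of 0. Leaving out 1 library also gave -9.89 to 90.1 percentage points for the share of RXRA-201 and -90.1 to 9.89 for RXRA-203. The ranges were -8.51 to 5.78 for NR1H3-228 and 97.5 to 98.7 for PPARG-213. Shares of 80% and 20% in place of 90% and 10%, chosen after seeing the data, gave 20 genes in place of 14.

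Same-numbered libraries did not deviate together (r = 0.008 over transcripts and -0.0192 over gene sums), so the numbers were not taken as pairs. With the replicate number as a block, 0 transcripts and 0 gene sums were called, 1961 and 781 passed an unadjusted p under 0.05 in place of 3283 and 1192, and the *PPARG* sum had a log2 fold change of 0.81.

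The counts behind *RARA*, *RXRB* and *NR1H2* were low, and edgeR's common dispersion over transcripts was 0.942 with 2 libraries a group.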

Other observations

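Among the 14 genes in which the shares of 2 transcripts changed places between the groups, *EZH2*, encoding the Polycomb methyltransferase, had 0 counts of EZH2-210 in both wild-type libraries and 787 and 631 in the resistant ones, while EZH2-204 held 20 and 29 against 39 and 67, so that its share was lower while its counts were not. *OXA1L*, encoding a mitochondrial insertase, had 6233 and 5605 counts of OXA1L-209 in the wild-type pair and 0 in both resistant libraries, and OXA1L-207 went from 458 and 341 to 8618 and 3095. Both genes were named after their values were seen.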
